A study of Homo sapiens with 24 samples.

Results

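The endoplasmic reticulum (ER) chaperones and helper proteins of the unfolded protein response were followed in 2 human cancer cell lines exposed to neratinib, as 10 genes taken by symbol from the 39786 genes of the count table. They are HSPA5, HSP90B1, PDIA4, SDF2L1, CRELD2, DNAJC3, DNAJB9, HERPUD1, XBP1 and MANF. In parental cells of both lines neratinib moved this set in opposite directions. HSP90B1, PDIA4, SDF2L1 and CRELD2 fell, and HERPUD1, XBP1 and DNAJB9 rose. In each line 35 of 37 tested genes rose in a list for the ATF4 arm, which other stresses share with this response. That list was written with earlier results of these data known. Of all genes tested, 23.9% rose and 23.5% fell in the bladder line 5637, and 16.2% rose and 16.3% fell in the ovarian line OVCAR8.

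The 24 libraries form 8 groups of 3. For the bladder carcinoma line 5637 these were neratinib-resistant (NR) cells with neratinib at 600 nM, NR control cells, parental cells with neratinib at 600 nM, and parental control cells. For the ovarian carcinoma line OVCAR8 they were NR cells with neratinib at 1 µM, NR control cells, parental cells with neratinib at 1 µM, and parental control cells. Exposure lasted 24 h, and NR cells had spent 1 week without drug before they were seeded, so NR control cells are resistant cells away from the drug. Neratinib irreversibly inhibits the EGFR, ERBB2 and ERBB4 kinases, and the doses differ between the lines. The labels give 1 NR population per line and no clone, and the control is named only as control. The 3 libraries of a group were dishes of 1 seeding, so p-values measure the spread between these samples only, which may be technical.

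Proteins that enter the ER are folded there, and the unfolded protein response raises folding capacity when misfolded proteins pile up. The sensor ATF6 is cut by proteases and its fragment becomes a transcription factor, the sensor IRE1 (gene ERN1) splices XBP1 mRNA so that it encodes one, and the sensor PERK (gene EIF2AK3) slows translation while letting ATF4 be made. ATF6 and spliced XBP1 are known to drive ER chaperone and degradation genes through the ER stress response elements ERSE and ERSE-II, while ATF4 drives amino acid synthesis, amino acid transport and DDIT3. PERK shares the ATF4 branch with kinases that sense other stresses, among them amino acid shortage. HERPUD1 has been described as a target of both branches. The counts give total XBP1 mRNA and not its splicing.

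The starts of these genes were searched because the elements that define the ATF6 and XBP1 branch can be read there. RefSeq windows on GRCh38.p14, a different build from the hg19 of the counts, hold 250 bases before and 50 bases after each start, and 12 windows matched all 10 members. The ERSE letters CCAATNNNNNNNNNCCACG, on either strand, stood in windows of HSPA5, HSP90B1, XBP1 and CRELD2, against 27 of all 35116 windows (0.0769%). The ERSE-II letters ATTGGNCCACG stood in windows of SDF2L1 and HERPUD1, against 19 windows in all (0.0541%). The amino acid response element TGATGNAA, which ATF4 and its partners bind, stood in the HERPUD1 window alone among the members, against 1270 windows in all (3.62%). The letters TGACGTGG, an element of the XBP1 branch, stood in no member window and in 256 of all windows (0.729%). No match was found for PDIA4, DNAJC3, DNAJB9 or MANF, which says only that these letters are not in these windows. None of these matches overlapped another. The members were listed as genes of the ATF6 and XBP1 branch, so finding its elements in them is description and no independent result. Members are named as genes, while the background counts windows. The next lines give the 250 bases before the starts of 1 gene that fell (HSPA5, in 5637) and of both genes that rose and carry an element, with every match in capitals.
HSPA5, GRCh38.p14 chr9:125241344-125241593, minus strand: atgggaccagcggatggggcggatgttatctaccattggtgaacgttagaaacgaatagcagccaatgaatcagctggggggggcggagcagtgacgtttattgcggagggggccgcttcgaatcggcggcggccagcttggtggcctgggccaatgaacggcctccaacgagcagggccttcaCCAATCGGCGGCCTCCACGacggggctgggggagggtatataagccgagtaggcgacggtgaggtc
HERPUD1, GRCh38.p14 chr16:56931892-56932141, plus strand: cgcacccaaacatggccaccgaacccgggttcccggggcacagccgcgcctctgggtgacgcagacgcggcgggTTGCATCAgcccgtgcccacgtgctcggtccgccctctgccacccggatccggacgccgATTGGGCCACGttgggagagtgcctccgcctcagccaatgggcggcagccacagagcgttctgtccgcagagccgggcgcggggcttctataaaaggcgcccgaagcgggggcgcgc
XBP1, GRCh38.p14 chr22:28800570-28800819, minus strand: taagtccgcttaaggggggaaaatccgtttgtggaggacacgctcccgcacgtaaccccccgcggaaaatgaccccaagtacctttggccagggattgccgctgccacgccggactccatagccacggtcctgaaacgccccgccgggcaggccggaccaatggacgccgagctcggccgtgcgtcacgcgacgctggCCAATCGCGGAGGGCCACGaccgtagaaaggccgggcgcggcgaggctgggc

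In the HERPUD1 stretch the first match is the amino acid response element, read on the opposite strand and ending 169 bases before the start, and the second is ERSE-II. The elements of the other 3 genes follow for comparison, each on the strand on which it reads forward, with the searched letters in capitals and the free positions in lower case. They lie in genes that fell in parental cells of both lines.
HSP90B1, GRCh38.p14 chr12:103930216-103930234, plus strand: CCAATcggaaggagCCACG
HSP90B1, GRCh38.p14 chr12:103930321-103930339, minus strand: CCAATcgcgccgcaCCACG
CRELD2, GRCh38.p14 chr22:49918554-49918572, minus strand: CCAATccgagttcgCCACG
SDF2L1, GRCh38.p14 chr22:21642114-21642124, minus strand: ATTGGtCCACG
The 6 genes with an ERSE or ERSE-II match thus include members on both sides of the drug effect described next.

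Counts are given as CPM, the count per 1000000 counts of the library, and library totals ran from 23849832 to 48486296 counts. Differences are log2 fold changes from edgeR's quasi-likelihood test with Benjamini-Hochberg adjustment over all genes tested in a line, written with their standard error (SE), and a gene is said to rise or fall where its adjusted p is below 0.05. OVCAR8 parental control replicate 2 stood apart, with 14.1% of its counts in genes longer than 8 kb, where the rest of OVCAR8 had 20.4% to 21.2%. Leaving it out gave a biological coefficient of variation of 4.37% for the line, against 13.0% with all 12 libraries and 8.03% in 5637. For members and for some lists and other genes, values of OVCAR8 without it stand beside those in which it changed a call, a count or a size markedly. All 6 epithelial and all 7 urothelial markers were above 1 CPM in every 5637 group. In OVCAR8 the keratins KRT7, KRT8 and KRT18 and the Müllerian factor PAX8 were expressed, whereas the epithelial genes CDH1 and KRT19 and 4 of 6 ovarian and Müllerian markers stayed below 1 CPM. The ovarian and Müllerian list summed to more in 5637 (189 to 422 CPM over group means) than in OVCAR8 (72.5 to 149 CPM). In 5637 MUC16 stood at 83.0 to 369 CPM and PAX8 at 12.1 to 44.2 CPM, against 71.1 to 145 CPM for PAX8 in OVCAR8. The urothelial markers GATA3 (11.6 to 18.5 CPM) and PPARG (6.02 to 9.95 CPM) were expressed in OVCAR8 too. Leukocyte, endothelial and fibroblast marker lists summed to at most 3.30 CPM in any group mean. In bulk RNA of this kind, fewer cells of one state and less RNA per cell cannot be told apart.

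Of the 10 members, 9 passed the filter on low counts in both lines. MANF (ENSG00000145050.11, hg19 chromosome 3, 51422478 to 51426828), an ER-resident and secreted stress protein, had 0 or 1 count in every library and 3 counts in all, and is not described further. Of its neighbours, RBM15B with 4 counts in all and VPRBP with 20 were near 0 as well, while DOCK3 on the other side had 7288. HYOU1, another ER chaperone of the Hsp70 family, had 0 to 3 counts a library. Whether these genes were silent or their reads were not counted was not tested. Per kilobase of gene, the OVCAR8 and 5637 parental control means were highest for HSP90B1, at 274 ± 43.2 and 177 ± 5.15 CPM per kb, and HSPA5, at 232 ± 32.7 and 258 ± 8.19 CPM per kb (SD, n = 3 each). PDIA4 followed at 106 ± 1.98 and 149 ± 2.20 CPM per kb. The other 6 lay far below, from 19.7 and 16.5 CPM per kb for XBP1 to 0.918 and 1.23 CPM per kb for DNAJB9, whose 53 to 249 counts a library make it the least precise.

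**Figure D1:**
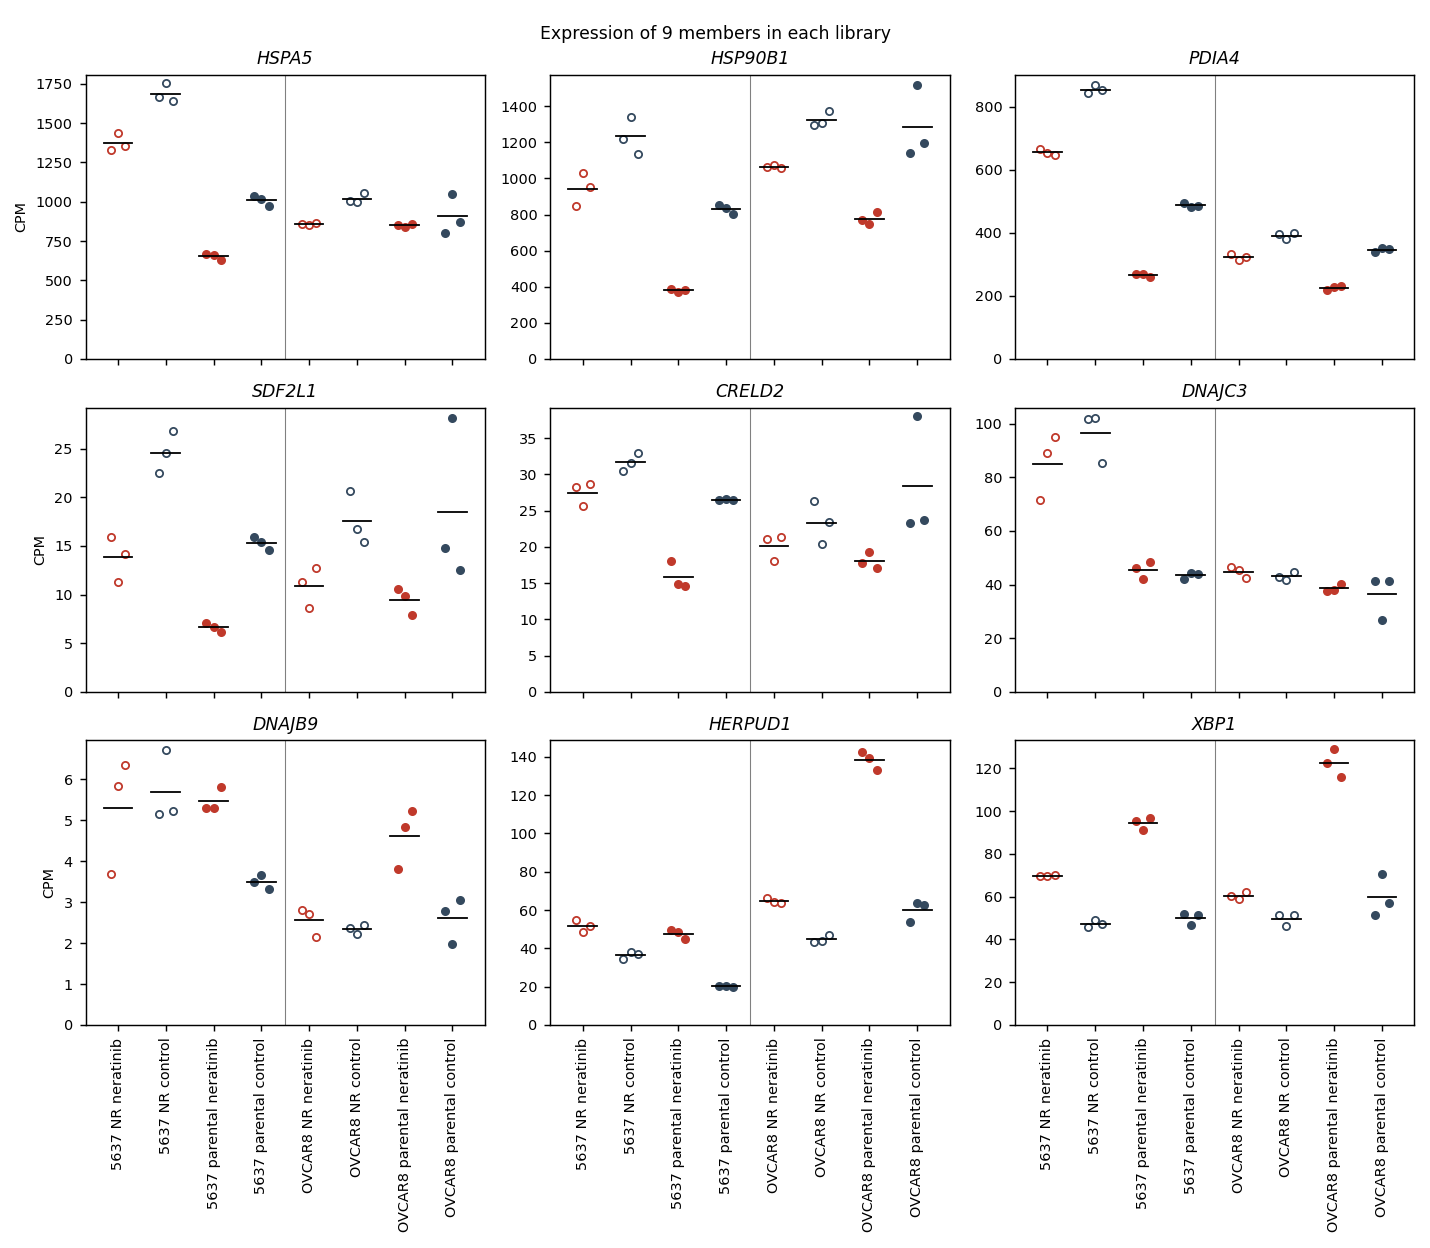
CPM (y axis, linear from 0) of the 9 members that passed the filter on low counts in each of the 24 libraries, with 5637 left and OVCAR8 right of the grey line. Red points are neratinib and dark points control libraries, open points NR and filled points parental cells, and black lines are group means. HERPUD1 and XBP1 are highest in parental cells on neratinib in OVCAR8, at 133 to 142 and 116 to 129 CPM, while HSPA5 and PDIA4 are highest in 5637 NR control cells.

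The first comparison asks what neratinib did in parental 5637 cells. Of the 9 members tested 3 rose and 5 fell, where 23.9% of all 18307 genes tested rose and 23.5% fell. HSPA5 (ENSG00000044574.7, hg19 chromosome 9, 127997132 to 128003609), the ER Hsp70 also called BiP that binds unfolded chains and holds the sensors inactive, stood at 668, 662 and 632 CPM with neratinib and at 1035, 1017 and 973 CPM in control cells. It fell by 0.73 on the log2 scale (SE 0.05, edgeR adjusted p = 1.4e-08), and no neratinib library came near a control library. HSP90B1 (ENSG00000166598.8, hg19 chromosome 12, 104323885 to 104347423), the ER Hsp90 also called GRP94, stood at 388, 370.4 and 381 CPM with neratinib and at 851, 836 and 804 CPM in control cells. This 2.36-fold lower level (log2 -1.24, SE 0.07, edgeR adjusted p = 8.7e-10) was also without overlap. The disulfide isomerase gene PDIA4 (ENSG00000155660.6, hg19 chromosome 7, 148700154 to 148725733), also called ERp72, stood at 271, 270.2 and 259 CPM with neratinib and at 496, 482 and 484 CPM in control cells. It was 1.97-fold lower (log2 -0.98, SE 0.05, edgeR adjusted p = 3e-10), with libraries of each group within a narrow band.

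Both small partners of the chaperones behaved alike in these cells. SDF2L1 (ENSG00000128228.4, hg19 chromosome 22, 21996550 to 21998587), which joins BiP and its DnaJ partners in a complex, stood at 7.05, 6.63 and 6.19 CPM with neratinib and at 15.9, 15.4 and 14.5 CPM in control cells. Its fall was 2.49-fold (log2 -1.31, SE 0.12, edgeR adjusted p = 4.1e-07), the deepest among the members. CRELD2 (ENSG00000184164.10, hg19 chromosome 22, 50311815 to 50321188), an ER-resident and secreted stress protein, stood at 18.0, 14.9 and 14.6 CPM with neratinib and at 26.4, 26.6 and 26.5 CPM in control cells. It was 1.81-fold lower (log2 -0.85, SE 0.09, edgeR adjusted p = 8.3e-07), and the groups did not overlap.

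The members that rose were HERPUD1, XBP1 and DNAJB9. HERPUD1 (ENSG00000051108.10, hg19 chromosome 16, 56965960 to 56977798), a membrane protein that helps pass misfolded proteins to the proteasome, stood at 49.5, 48.3 and 45.1 CPM with neratinib and at 20.2, 20.3 and 19.9 CPM in control cells. The rise was 2.20-fold (log2 1.13, SE 0.07, edgeR adjusted p = 6.5e-09), with tightly grouped controls. XBP1 (ENSG00000100219.12, hg19 chromosome 22, 29190543 to 29196585), the transcription factor of the IRE1 branch, stood at 95.1, 91.3 and 96.8 CPM with neratinib and at 51.8, 46.6 and 51.4 CPM in control cells, a 1.75-fold rise (log2 0.81, SE 0.06, edgeR adjusted p = 2.4e-08). DNAJB9 (ENSG00000128590.4, hg19 chromosome 7, 108210012 to 108215294), a BiP co-chaperone that also restrains IRE1, stood at 5.30, 5.31 and 5.82 CPM with neratinib and at 3.48, 3.67 and 3.32 CPM in control cells. This low-level gene rose by 1.46-fold (log2 0.54, SE 0.16, edgeR adjusted p = 0.013). DNAJC3 (ENSG00000102580.10, hg19 chromosome 13, 96329393 to 96447243), a co-chaperone also called P58IPK that inhibits PERK, stood at 46.3, 42.0 and 48.3 CPM with neratinib and at 42.2, 44.5 and 43.8 CPM in control cells. Its groups overlapped and it did not pass the test (log2 -0.04, 95% interval -0.23 to 0.15).

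The first comparison in OVCAR8 asks the same of its parental cells. Of the 9 members 3 rose and 4 fell, where 16.2% of 18072 genes tested rose and 16.3% fell, and 3 rose and 5 fell once parental control replicate 2 was left out, where 49.2% of all genes tested in that fit were called. The 7 members called in this line were called in 5637 too, and all 7 moved in the same direction, in comparisons that share no library. HSP90B1 stood at 769, 748 and 811 CPM with neratinib and at 1143, 1518 and 1198 CPM in control cells. It was 1.79-fold lower (log2 -0.84, SE 0.12, edgeR adjusted p = 0.00036) and 0.64 lower on the log2 scale without that control library, which held the highest level. PDIA4 stood at 219, 228 and 230.4 CPM with neratinib and at 339, 351 and 349.7 CPM in control cells, a 1.64-fold lower level (log2 -0.72, SE 0.07, edgeR adjusted p = 2.3e-05). All its neratinib libraries lay below all controls.

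SDF2L1 and CRELD2 depended more on the control library that stood apart. SDF2L1 stood at 10.6, 9.88 and 7.89 CPM with neratinib and at 14.8, 28.1 and 12.5 CPM in control cells. Its fall was -1.09 on the log2 scale (SE 0.29, edgeR adjusted p = 0.014), and -0.59 (edgeR adjusted p = 0.0013) without control replicate 2, at 28.1 CPM. Without neratinib replicate 3 the call ended (edgeR adjusted p = 0.06), as it did with the 6 compared libraries fitted alone (0.073). CRELD2 stood at 17.7, 19.3 and 17.04 CPM with neratinib and at 23.3, 38.0 and 23.7 CPM in control cells. It changed by -0.77 (SE 0.20, edgeR adjusted p = 0.012), and by -0.43 (edgeR adjusted p = 0.00031) without that library, and its call ended with the 6 compared libraries alone (edgeR adjusted p = 0.07). HSPA5 stood at 854, 842 and 858 CPM with neratinib and at 803, 1050.3 and 871 CPM in control cells. The groups overlapped, and HSPA5 did not pass the test with that library (log2 -0.20, edgeR adjusted p = 0.2) or without it (log2 -0.03, edgeR adjusted p = 0.62), but was called lower without control replicate 1, its lowest control library (log2 -0.31, edgeR adjusted p = 0.038).

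HERPUD1 stood at 142, 139 and 133 CPM in parental OVCAR8 cells with neratinib and at 53.5, 63.6 and 62.7 CPM in control cells. Its 2.15-fold rise (log2 1.10, SE 0.09, edgeR adjusted p = 8.4e-06) put every treated library above every library of the other 7 groups. XBP1 stood at 122, 129 and 116 CPM with neratinib and at 51.5, 70.5 and 56.9 CPM in control cells, 1.90-fold higher (log2 0.93, SE 0.13, edgeR adjusted p = 0.00025). DNAJB9 stood at 3.81, 4.83 and 5.23 CPM with neratinib and at 2.78, 1.97 and 3.06 CPM in control cells, 1.67-fold higher (log2 0.74, SE 0.16, edgeR adjusted p = 0.0047). For both genes all treated libraries lay above all controls. DNAJC3 stood at 37.8, 38.0 and 40.1 CPM with neratinib and at 41.3, 26.8 and 41.4 CPM in control cells. It did not pass the test (log2 -0.01, 95% interval -0.25 to 0.24), but without control replicate 2, its lowest library, it was called lower (log2 -0.15, edgeR adjusted p = 0.027).

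The sizes of the drug effect in parental cells were set against each other across lines in 1 fit of all 24 libraries. The effect on 1 of 9 members was higher in OVCAR8 than in 5637 and on 0 lower, where 5.46% of 20250 genes tested were called higher and 4.83% lower. That member was HSPA5, whose effect was -0.20 in OVCAR8 and -0.73 in 5637, a difference of 0.52 (SE 0.13, edgeR adjusted p = 0.0091). With the 12 parental libraries fitted alone this call ended (edgeR adjusted p = 0.079). The differences were 0.39 for HSP90B1 (95% interval 0.09 to 0.68) and 0.25 for PDIA4 (0.07 to 0.43), with edgeR adjusted p = 0.088 and 0.073. For HERPUD1 the difference was -0.04 (95% interval -0.29 to 0.21) and for XBP1 0.11 (-0.19 to 0.40). Without OVCAR8 parental control replicate 2, 6 members were called, where 18.6% of all genes were called in that fit, so this count depends on that library. Line and dose cannot be told apart here.

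**Figure D2:**
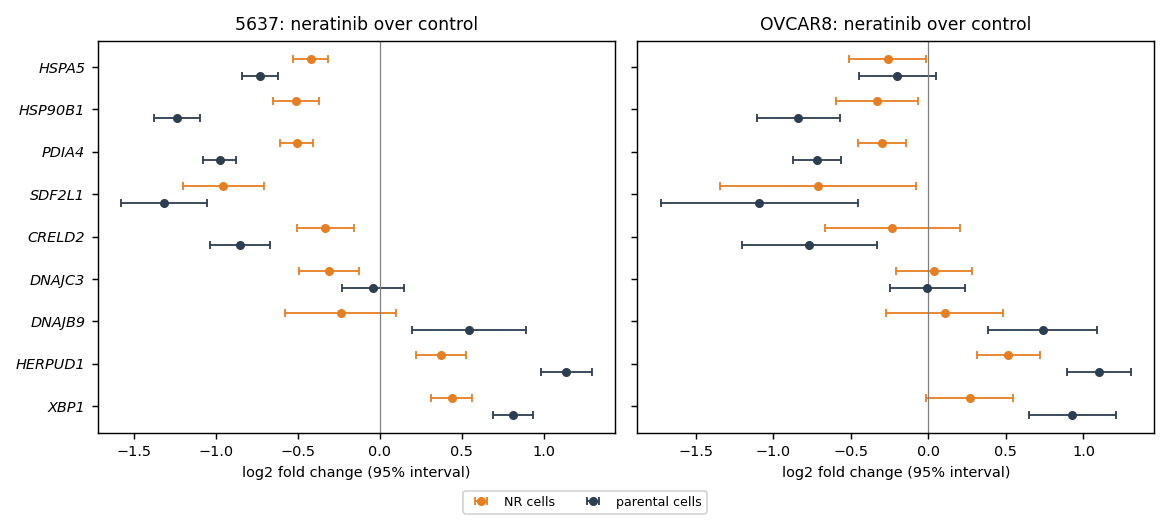
Log2 fold change of neratinib over control (x axis) with its 95% interval for 9 members (y axis), in NR cells (orange) and parental cells (dark), for 5637 (left) and OVCAR8 (right). In parental cells HERPUD1 lies at 1.13 in 5637 and 1.10 in OVCAR8, while HSP90B1 lies at -1.24 and -0.84, and NR values lie nearer to 0 for both genes.

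The ATF4 arm was set beside these genes as a list of 38 genes written from general knowledge, but with earlier results of these data known. The list is therefore not independent of these data. In parental 5637 cells 35 of its 37 tested genes rose and 0 fell with neratinib, where 23.9% of all genes tested rose and 23.5% fell. The median log2 fold change was 1.69, against -0.73 for the 9 members and 0.02 for all genes tested. ATF4 itself averaged 722 ± 4.43 CPM with neratinib and 327 ± 5.15 CPM in control cells (SD, n = 3 each; log2 1.04, edgeR adjusted p = 3.1e-10). DDIT3, the transcription factor CHOP, averaged 34.6 ± 2.06 CPM with neratinib and 5.46 ± 0.225 CPM in control cells (SD, n = 3 each; log2 2.56, edgeR adjusted p = 2.3e-12). CHAC1, which degrades glutathione, ASNS, the asparagine synthetase, and CBS, of cysteine synthesis, rose most, by log2 4.87, 3.94 and 3.78. This ranking is among list genes of at least 5 CPM on average over the line, treated groups included. CHAC1 stood at 2.49 ± 0.160 CPM in parental control cells and 78.2 ± 4.43 CPM with neratinib (SD, n = 3 each). In parental OVCAR8 cells 35 of 37 rose and 0 fell, where 16.2% of all genes tested rose and 16.3% fell. The median was 1.27, against -0.20 for the members and 0.01 for all genes tested. Without parental control replicate 2, 38 of 38 rose, where 49.2% of all genes were called. With all libraries DDIT3 averaged 47.5 ± 0.325 CPM with neratinib and 10.3 ± 4.20 CPM in control cells (SD, n = 3 each; log2 2.09, edgeR adjusted p = 5.3e-05), and INHBE, a secreted TGF-beta family subunit, rose by log2 4.59. INHBE was low in these control cells, at 1.40 ± 0.277 CPM, against 35.9 ± 1.55 CPM with neratinib (SD, n = 3 each). HERPUD1, XBP1 and DNAJB9 therefore shared the direction of the ATF4 list and HSP90B1, PDIA4, SDF2L1 and CRELD2 had the opposite one in both lines.

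Other ER genes known as targets of ATF6 or XBP1 were read next. In parental 5637 cells 4 of 25 rose and 9 fell (median -0.07), where 23.9% and 23.5% of all genes did. In parental OVCAR8 cells 3 of 25 rose and 9 fell (median -0.15), where 16.2% and 16.3% of all genes did. Without parental control replicate 2 the counts became 4 and 13, in a fit that called 49.2% of all genes. The rising counts lie near the share of all genes, and with 25 genes they are description only. CALR, the lectin chaperone calreticulin, averaged 366 ± 7.82 CPM with neratinib and 773 ± 21.9 CPM in control cells of 5637 (SD, n = 3 each; log2 -1.19, edgeR adjusted p = 7.3e-11). In OVCAR8 it averaged 538 ± 25.6 CPM with neratinib and 965 ± 54.5 CPM in control cells (SD, n = 3 each; log2 -0.95, edgeR adjusted p = 1.4e-05). PPIB, an ER prolyl isomerase, fell in 5637 (log2 -0.78) and PDIA3, a disulfide isomerase that works with CALR, in OVCAR8 (log2 -0.55). DNAJC10, a reductase for proteins bound for degradation, rose in both (log2 0.34 in each), SEL1L, of the same degradation complex as SYVN1, rose in 5637 (log2 0.30), and SYVN1 rose in OVCAR8 (log2 0.33). In OVCAR8 DNAJC10 averaged 117 ± 3.17 CPM with neratinib and 87.2 ± 15.7 CPM in control cells, which were spread (SD, n = 3 each). DNAJC10 is long, at 21586 bases, and parental control replicate 2 was poor in counts of long genes. The part of gene length in its OVCAR8 rise was not tested. DERL3 and SEC61B, of ER degradation and protein entry, also fell, in 5637 (log2 -1.15) and in OVCAR8 (log2 -0.61, or -0.31 without parental control replicate 2), and HSPA13, an ER Hsp70, and EDEM2, of degradation, rose in 5637 (log2 0.39) and in OVCAR8 (log2 0.30). DERL3 was low in parental 5637 cells, at 1.40 ± 0.181 CPM with neratinib and 2.87 ± 0.447 CPM in control cells (SD, n = 3 each).

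Chaperones outside the ER were read with the same test. Of the cytosolic and mitochondrial chaperones 11 of 13 fell and 0 rose in parental 5637 cells (median -0.81), and 11 of 12 fell and 0 rose in parental OVCAR8 cells (median -0.66, or -0.49 with 12 falling without parental control replicate 2). Of all genes tested 23.9% rose and 23.5% fell in 5637. In OVCAR8 16.2% rose and 16.3% fell, and 49.2% were called without that library. HSPA8, the constitutive cytosolic Hsp70, fell by 1.07 on the log2 scale in 5637, and HSPE1, the mitochondrial Hsp10, by 1.14 in 5637 and 1.39 in OVCAR8 (edgeR adjusted p from 1.3e-10 to 0.00081). In OVCAR8 the control libraries of HSPE1 ran from 31.7 to 60.2 CPM, and without parental control replicate 2 its fall was 0.95 on the log2 scale (edgeR adjusted p = 2.1e-11). HSP90AA1, a cytosolic Hsp90, averaged 2168 ± 82.0 CPM in parental OVCAR8 cells on neratinib and 4571 ± 210.5 CPM in control cells (SD, n = 3 each), and fell by edgeR's test (adjusted p = 2.6e-06). Among sensors and their proteases 1 rose and 1 fell of 9 in parental 5637 cells. ERN1 rose there, to 19.8 ± 0.679 CPM with neratinib against 11.3 ± 0.859 CPM in control cells (SD, n = 3 each; log2 0.71, edgeR adjusted p = 3.3e-06), while ATF6 (log2 0.09) and EIF2AK3 (log2 0.13) did not pass the test. In parental OVCAR8 cells 4 rose and 1 fell of 9, and 5 rose and 2 fell without parental control replicate 2, EIF2AK3 then being called lower (log2 -0.25, edgeR adjusted p = 0.033). ATF6 rose there (log2 0.45, edgeR adjusted p = 0.0039), as did its processing protease genes MBTPS1 (log2 0.30) and MBTPS2 (log2 0.51). Their control libraries were spread, at 38.9 to 57.5 CPM for ATF6, 89.1 to 118 CPM for MBTPS1 and 10.3 to 16.5 CPM for MBTPS2. All treated libraries lay above these. The 3 genes are long, at 7890 bases for ATF6, 10226 for MBTPS1 and 8927 for MBTPS2. Parental control replicate 2 had 14.1% of its counts in genes longer than 8 kb, against 20.4% to 21.2% in the rest of OVCAR8. The part of gene length in these rises was not tested. The list median was 0.29 in parental OVCAR8 cells and 0.17 without parental control replicate 2, and the 3 rises without that library are not given. In the full fit ERN1 (log2 0.29, edgeR adjusted p = 0.12) and EIF2AK3 (log2 -0.13) did not pass. EIF2S1, the translation factor that PERK phosphorylates, fell in both lines (log2 -0.51 in OVCAR8 and -0.69 in 5637).

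**Figure D3:**
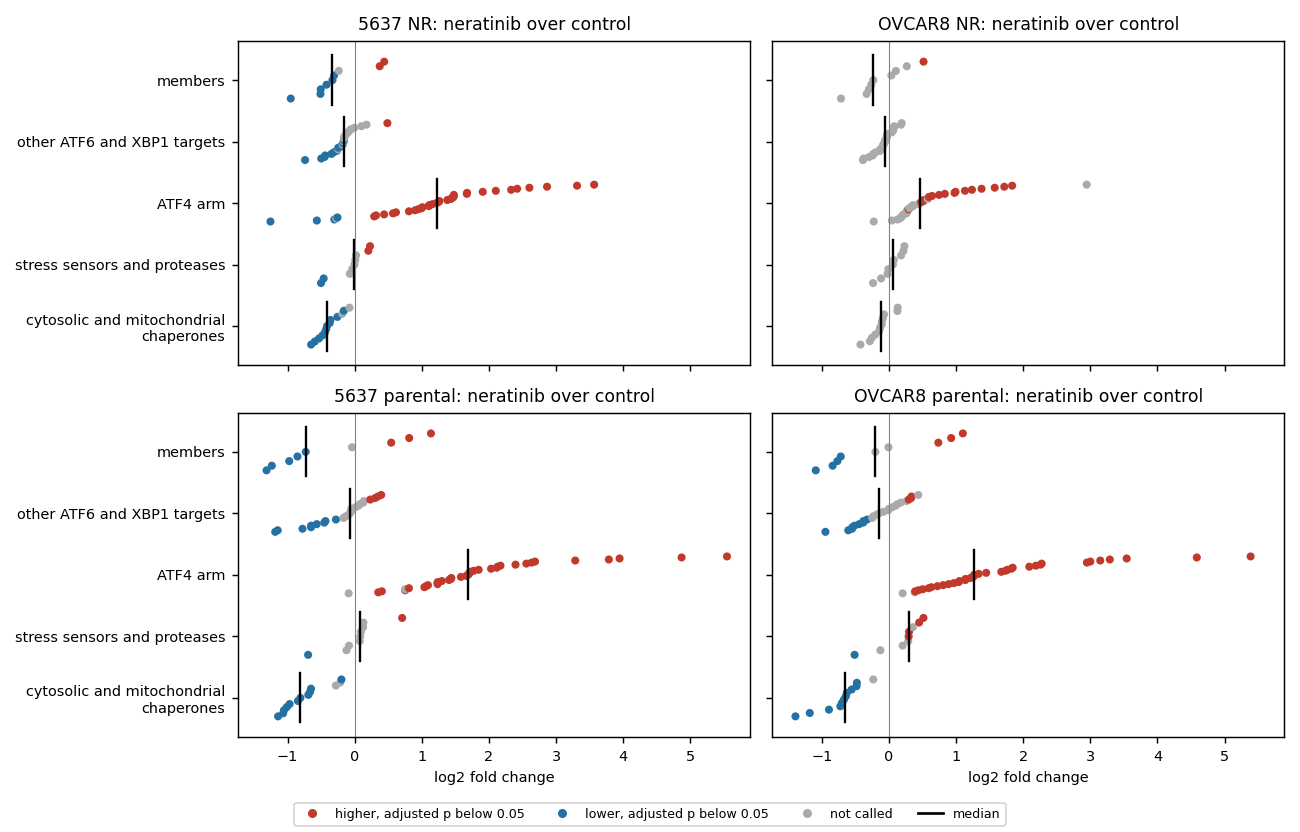
Log2 fold change of neratinib over control (x axis) of every tested gene of 5 lists (rows), 1 point a gene, in NR cells (top) and parental cells (bottom) of 5637 (left) and OVCAR8 (right). Red points rose, blue points fell and grey points did not pass an adjusted p of 0.05, and black bars are medians. In parental cells the ATF4 arm has medians of 1.69 and 1.27 while cytosolic and mitochondrial chaperones have -0.81 and -0.66, with members on both sides of 0.

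The next question is how resistant cells responded when given the drug again. In 5637 NR cells 2 of 9 members rose and 6 fell, where 18.4% of all genes tested rose and 21.1% fell. HSPA5 stood at 1330.5, 1438 and 1357 CPM with neratinib and at 1666, 1753 and 1643 CPM in control cells, 1.34-fold lower (log2 -0.42, SE 0.05, edgeR adjusted p = 8.2e-06). Every one of these 6 libraries was above every parental library of 5637. HSP90B1 stood at 849, 1032 and 950.1 CPM with neratinib and at 1221, 1339 and 1137 CPM in control cells (log2 -0.51, SE 0.07, edgeR adjusted p = 1.7e-05). PDIA4 stood at 667, 653 and 649 CPM with neratinib and at 843, 870.4 and 852 CPM in control cells (log2 -0.51, SE 0.05, edgeR adjusted p = 5.6e-07). Neither gene's groups overlapped. SDF2L1 stood at 16.0, 11.3 and 14.2 CPM with neratinib and at 22.5, 24.5 and 26.8 CPM in control cells, the deepest fall again (log2 -0.95, SE 0.11, edgeR adjusted p = 9.4e-06).

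CRELD2 stood at 28.2, 25.6 and 28.6 CPM in 5637 NR cells with neratinib and at 30.5, 31.6 and 33.0 CPM in NR control cells. This small fall (log2 -0.33, SE 0.08, edgeR adjusted p = 0.0048) kept the groups apart. DNAJC3 stood at 71.4, 88.9 and 94.8 CPM with neratinib and at 102, 102 and 85.4 CPM in control cells (log2 -0.31, SE 0.09, edgeR adjusted p = 0.0099), with overlapping groups. Scaled by library size alone, neither CRELD2 (edgeR adjusted p = 0.055) nor DNAJC3 (0.15) was called. HERPUD1 stood at 54.9, 48.3 and 51.8 CPM with neratinib and at 34.5, 38.2 and 37.3 CPM in control cells, 1.29-fold higher (log2 0.37, SE 0.07, edgeR adjusted p = 0.00067). XBP1 stood at 69.4, 69.8 and 70.3 CPM with neratinib and at 45.8, 48.9 and 47.0 CPM in control cells, 1.36-fold higher (log2 0.44, SE 0.06, edgeR adjusted p = 2.6e-05). Both genes were without overlap, and DNAJB9, at 3.70, 5.85 and 6.34 CPM with neratinib and at 5.14, 6.71 and 5.24 CPM in control cells, overlapped and did not pass (log2 -0.24, edgeR adjusted p = 0.26). The ATF4 arm in these cells had 32 of 37 genes rising and 4 falling, with a median of 1.22, and the cytosolic and mitochondrial chaperones had 11 of 13 falling and 0 rising. Of all genes tested 18.4% rose and 21.1% fell, and the ATF4 list is not independent of these data.

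The difference between the 2 drug effects in 5637, NR minus parental, was positive for 4 of 9 members and negative for 3, where 7.39% of all genes tested were called positive and 6.48% negative. All 4 positive members had fallen in parental cells and fell less in NR cells, and the 3 negative ones had risen in parental cells. The parental effect enters this difference with a minus sign, so the opposite signs are in part built in. For HSP90B1 the effect was -0.51 in NR and -1.24 in parental cells, a difference of 0.72 (SE 0.09, edgeR adjusted p = 7.1e-05). CRELD2 differed by 0.52 (SE 0.12, edgeR adjusted p = 0.0076), PDIA4 by 0.47 (SE 0.07, edgeR adjusted p = 0.00019) and HSPA5 by 0.31 (SE 0.07, edgeR adjusted p = 0.0078). For HERPUD1 the effect was 0.37 in NR and 1.13 in parental cells, a difference of -0.76 (SE 0.10, edgeR adjusted p = 0.00011). XBP1 differed by -0.37 (SE 0.08, edgeR adjusted p = 0.0065) and DNAJB9 by -0.78 (SE 0.23, edgeR adjusted p = 0.033). DNAJB9 was called in 11 of 18 alternatives, and leaving out any 1 parental library or NR control replicate 2 ended its call (edgeR adjusted p from 0.054 to 0.085). SDF2L1 (0.36, 95% interval 0.00 to 0.72) and DNAJC3 (-0.27, -0.53 to -0.00) did not pass, each with edgeR adjusted p = 0.18. In the ATF4 arm 22 of 37 genes were called negative and 1 positive, but ATF4 itself differed by -0.03 (edgeR adjusted p = 0.84) and DDIT3 by -1.31 (edgeR adjusted p = 1.3e-06).

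In OVCAR8 NR cells neratinib raised 1 of 9 members and lowered 0, where 0.642% of all genes tested rose and 0.747% fell. HERPUD1 stood at 66.1, 64.0 and 63.9 CPM with neratinib and at 43.4, 43.7 and 46.9 CPM in control cells, 1.43-fold higher (log2 0.52, SE 0.09, edgeR adjusted p = 0.022). The 2 groups were well apart, yet leaving out any 1 of these 6 libraries ended the call. Without OVCAR8 parental control replicate 2, which is in neither group but sets the spread of the line, 7 members were called, and with the 6 libraries fitted alone 6 were called. In those fits 21.3% and 21.4% of all genes tested were called. HSP90B1 stood at 1061, 1072 and 1059.6 CPM with neratinib and at 1295, 1304 and 1372 CPM in control cells. Its log2 value was -0.33, with edgeR adjusted p = 0.24 in the full fit and 7.5e-07 without that library. PDIA4 stood at 333, 313 and 322 CPM with neratinib and at 396, 381 and 398 CPM in control cells (log2 -0.30, edgeR adjusted p = 0.067, and 3e-06 without that library). Both genes had no overlap between their groups, but neither passed in the full fit.

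HSPA5 stood at 860.1, 855 and 864 CPM in OVCAR8 NR cells with neratinib and at 1006, 998 and 1053 CPM in NR control cells (log2 -0.26, edgeR adjusted p = 0.33, and 1e-05 without the parental library). SDF2L1 stood at 11.3, 8.65 and 12.7 CPM with neratinib and at 20.6, 16.7 and 15.4 CPM in control cells (log2 -0.71, edgeR adjusted p = 0.29, and 0.00021 without it). XBP1 stood at 60.3, 58.9 and 62.2 CPM with neratinib and at 51.4, 46.2 and 51.4 CPM in control cells (log2 0.27, edgeR adjusted p = 0.39, and 0.0014 without it). These 3 genes too had groups that did not overlap, but none of them passed in the full fit. How many of all genes had groups without overlap is not given here, so non-overlap of 3 against 3 libraries is description only. CRELD2, at 18.0 to 21.4 CPM with neratinib and 20.3 to 26.3 CPM in control cells, and DNAJB9 and DNAJC3 had overlapping groups. In the ATF4 arm 16 of 37 genes rose and 0 fell (median 0.46), where 0.642% of all genes tested rose and 0.747% fell. Without OVCAR8 parental control replicate 2, 33 of 38 rose and 0 fell, in a fit that called 21.3% of all genes. DDIT3 stood at log2 0.58 (edgeR adjusted p = 0.29 in the full fit).

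The NR minus parental difference of drug effects in OVCAR8 was positive for 1 of 9 members and negative for 2, where 4.62% of all genes tested were called positive and 4.21% negative. PDIA4 was at -0.30 in NR and -0.72 in parental cells, a difference of 0.42 (SE 0.10, edgeR adjusted p = 0.024). HERPUD1 was at 0.52 in NR and 1.10 in parental cells, a difference of -0.59 (SE 0.13, edgeR adjusted p = 0.018), and XBP1 at 0.27 and 0.93, a difference of -0.66 (SE 0.18, edgeR adjusted p = 0.043). All 3 differ in the same direction as in 5637. Between 0 and 5 members were called when 1 library was left out. Of 18 alternatives, PDIA4 was called in 8, HERPUD1 in 13 and XBP1 in 5, with edgeR adjusted p up to 0.087, 0.058 and 0.11. Leaving out any library but parental control replicate 2 ended the XBP1 call, and leaving out parental neratinib replicate 1 or 2, NR control replicate 3 or NR neratinib replicate 3 ended all 3. Without parental control replicate 2, where 32.8% of all genes were called, the 5 were HSP90B1 (0.30) and PDIA4 (0.35) as positive, and HSPA5 (-0.25), HERPUD1 (-0.69) and XBP1 (-0.87) as negative. Set against 5637, 0 of 9 members had a drug effect in NR cells that differed between lines in the edgeR fit, where 5.04% of genes were called higher in OVCAR8 and 4.78% lower. At an unadjusted p below 0.05 there were 2, PDIA4 (0.20, 95% interval 0.02 to 0.38) and DNAJC3 (0.33, 0.03 to 0.64), and DESeq2 called 0 as well.

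The resistant state itself was read by setting NR against parental cells. Without drug in 5637, 8 of 9 members were higher in NR cells and 0 lower, where 28.4% of all genes tested were higher and 28.0% lower. DNAJC3, at 102, 102 and 85.4 CPM in NR and 42.2, 44.5 and 43.8 CPM in parental control cells, was 2.19-fold higher (log2 1.13, SE 0.09, edgeR adjusted p = 2.3e-08). HERPUD1 was 1.80-fold higher (log2 0.85, SE 0.07), PDIA4 1.74-fold (log2 0.80, SE 0.05), HSPA5 1.66-fold (log2 0.73, SE 0.05) and DNAJB9 1.61-fold (log2 0.69, SE 0.16). SDF2L1 (log2 0.67), HSP90B1 (log2 0.55) and CRELD2 (log2 0.24) were higher too, with edgeR adjusted p from 9.8e-10 to 0.02 over these 7 genes. The CRELD2 call ended without parental control replicate 2 or 3 or NR control replicate 3 (edgeR adjusted p from 0.053 to 0.075). XBP1, with overlapping groups, did not pass (log2 -0.10, 95% interval -0.22 to 0.03). Of the other ATF6 and XBP1 targets 18 of 25 were higher and 1 lower (median 0.48), while the ATF4 arm was split at 16 higher and 11 lower of 37 (median 0.02). ERN1 was higher by log2 1.64 (edgeR adjusted p = 8.7e-11), EIF2AK3 by 0.35 (edgeR adjusted p = 0.005) and ATF6 by 0.02 (edgeR adjusted p = 0.83). Marker lists moved with the same contrast, and their part in the result was not tested. Of 7 urothelial markers 5 were lower in NR cells and 2 higher, PPARG (log2 0.57) and UPK2 (log2 0.71). Their levels summed to 834 CPM in NR and 4659 CPM in parental control cells, mostly KRT5, a basal keratin, at 547 ± 19.1 CPM in NR and 3948 ± 53.1 CPM in parental cells (SD, n = 3 each). Of 6 epithelial markers 5 were lower and 1, EPCAM, higher, with sums of 4877 CPM in NR and 9676 CPM in parental control cells.

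With both on neratinib, 5637 NR cells had 6 members higher than parental cells and 1 lower, where 28.8% of all genes tested were higher and 29.2% lower. HSP90B1 was 2.43-fold higher (log2 1.28, SE 0.07, edgeR adjusted p = 2.1e-10), PDIA4 2.40-fold (log2 1.27, SE 0.05, edgeR adjusted p = 5.1e-12) and HSPA5 2.05-fold (log2 1.04, SE 0.05, edgeR adjusted p = 1e-10). SDF2L1 (log2 1.03), DNAJC3 (log2 0.86) and CRELD2 (log2 0.77) were higher as well. XBP1 was 1.38-fold lower (log2 -0.47, SE 0.06, edgeR adjusted p = 4.4e-06), and HERPUD1 (log2 0.09, 95% interval -0.06 to 0.24) and DNAJB9 (log2 -0.09, -0.43 to 0.25) did not pass. The ATF4 arm had 5 genes higher and 23 lower of 37 (median -0.36). Of the urothelial markers 4 were lower (KRT5, KRT17, TP63 and GATA3) and 1, PPARG, higher (log2 0.59), and they summed to 1596 CPM in NR and 5221 CPM in parental cells on neratinib. Of 6 epithelial markers 5 were lower and 1 higher, with sums of 4534 CPM in NR and 8641 CPM in parental cells. The part of either list in the result was not tested.

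Between OVCAR8 NR and parental control cells 0 members were higher and 1 lower, where 4.94% of all genes tested were higher and 4.91% lower. HERPUD1, at 43.4, 43.7 and 46.9 CPM in NR and 53.5, 63.6 and 62.7 CPM in parental control cells, was 1.39-fold lower (log2 -0.47, SE 0.09, edgeR adjusted p = 0.007). Without parental control replicate 2 it stayed lower (log2 -0.38), and HSPA5 (log2 0.29), PDIA4 (log2 0.19) and HSP90B1 (log2 0.18) were called higher, whereas HSP90B1 was at -0.02 with that library. In that fit 22.8% of all genes were called. In this contrast 3 of 6 epithelial markers were lower and 0 higher, KRT7 (log2 -1.62), KRT8 (log2 -0.83) and KRT18 (log2 -0.98), with sums of 2634 CPM in NR and 5130 CPM in parental control cells, and PAX8 was lower too (log2 -0.92). Their part in the result was not tested.

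With both on neratinib, 2 members were higher in OVCAR8 NR than in parental cells and 3 lower, where 14.6% of all genes tested were higher and 16.4% lower. Leaving out parental control replicate 2 gave 3 higher and 3 lower, with 55.5% of all genes called. HSP90B1 (log2 0.49, SE 0.12, edgeR adjusted p = 0.0099) and PDIA4 (log2 0.55, SE 0.07, edgeR adjusted p = 0.00013) were higher. HERPUD1 was 2.08-fold lower (log2 -1.06, SE 0.09, edgeR adjusted p = 8.4e-06), XBP1 1.97-fold lower (log2 -0.98, SE 0.13, edgeR adjusted p = 0.00015) and DNAJB9 1.77-fold lower (log2 -0.82, SE 0.16, edgeR adjusted p = 0.0024). The ATF4 arm had 34 of 37 genes lower and 0 higher (median -0.97). Of 6 epithelial markers 2 were lower, KRT7 (log2 -1.46) and EPCAM (log2 -0.42), 1 was higher, KRT19, whose mean was below 1 CPM in each OVCAR8 group, and KRT8 and KRT18 did not pass. They summed to 2520.2 CPM in NR and 4119 CPM in parental cells on neratinib, and their part in the result was not tested. The NR against parental and the drug comparisons of a line share libraries, so they are given side by side and not set against each other.

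**Figure D4:**
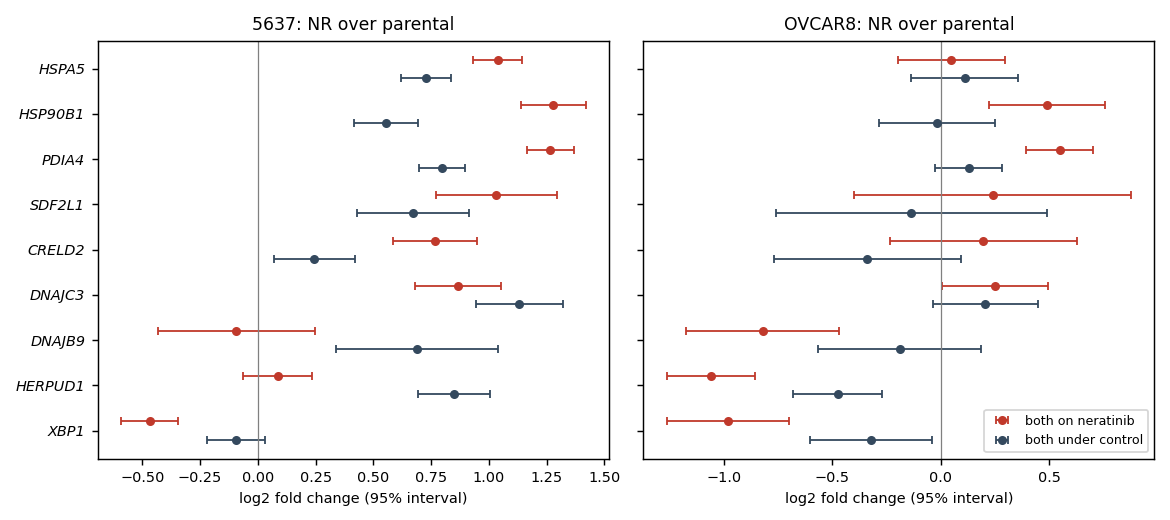
Log2 fold change of NR over parental cells (x axis) with its 95% interval for 9 members (y axis), with both on neratinib (red) or both under control (dark), in 5637 (left) and OVCAR8 (right). In 5637 HSPA5, HSP90B1, PDIA4, SDF2L1, CRELD2 and DNAJC3 lie right of 0 in both settings, up to 1.28 for HSP90B1 on neratinib, while DNAJB9 lies at -0.09 on neratinib. In OVCAR8 HERPUD1, XBP1 and DNAJB9 lie at -1.06, -0.98 and -0.82 on neratinib.

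The lines also differed before drug. Of the 9 members 3 were higher and 3 lower in OVCAR8 than in 5637 parental control cells, where 36.8% of all genes tested were higher and 35.1% lower. HERPUD1 was 2.98-fold higher (log2 1.58, SE 0.09, edgeR adjusted p = 8.8e-14), and HSP90B1 (log2 0.64) and XBP1 (log2 0.26) were higher. PDIA4 (log2 -0.49), DNAJB9 (log2 -0.43) and DNAJC3 (log2 -0.26) were lower, and HSPA5 (log2 -0.14), SDF2L1 (log2 0.29) and CRELD2 (log2 0.11) did not pass. Without OVCAR8 parental control replicate 2 the calls of DNAJB9 (edgeR adjusted p = 0.14), DNAJC3 (0.2) and XBP1 (0.33) ended, and without 5637 parental control replicate 2 they ended too (0.083, 0.064 and 0.13). A line is 1 cell line of its tissue, so tissue and line cannot be told apart.

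How the members varied among themselves was described by Pearson's r of log2 CPM over 24 libraries, centred within each line, which share depth and composition and are given without a test. HSPA5, HSP90B1, PDIA4, SDF2L1 and CRELD2 had r from 0.80 to 0.97 over their 10 pairs. HERPUD1, XBP1 and DNAJB9 had r from 0.63 to 0.86 over 3 pairs, and the 15 pairs across these blocks had r from -0.77 to -0.01. The blocks were set by the direction under the drug in the same libraries, so these values restate it in part. DNAJC3, in neither block, had r of 0.75 with HSPA5, 0.72 with PDIA4, 0.35 with SDF2L1, 0.34 with CRELD2 and -0.29 with XBP1. Among 9789 genes of at least 10 CPM on average, those most like HSPA5 were ANXA6 (r = 0.97), DNAJB11 (0.96), another ER co-chaperone of BiP, XDH (0.96), SCARB1 (0.96) and NT5E (0.96). Those most like HERPUD1 were PPM1M (0.97), FAM120AOS (0.97), LINC00847 (0.96), SPECC1L (0.96) and TMEM129 (0.96). The mean of the members was most like CSTB and SFRP1 (0.97 each), HERC5 (0.97), PGM1 (0.96) and PLIN2 (0.96).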

How the data were processed

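Messenger RNA of 24 libraries was sequenced from stranded TruSeq libraries with paired ends on a HiSeq3000, per the labels' protocols. The table deposited by the authors gives raw whole-number counts for each gene, with its length, hg19 position and symbol. The submitters' processing notes name STAR 2.5.3a, featureCounts 1.15.2, FastQC and hg19, as well as DESeq2 1.18.1, without their order. Whether counting used strand is not given in the sources used here, so reads of a gene and of an overlapping antisense gene cannot be told apart. Libraries were grouped by line, state and treatment as labelled. Each line was fitted alone (12 libraries, 4 group means) and line differences with all 24, using the quasi-likelihood test of edgeR 4.0.16 in R 4.3.3 with filterByExpr, TMM factors and Benjamini-Hochberg adjustment over all genes tested, threshold 0.05. CPM is the count divided by the library total, and the TMM factors enter only the fits, so a ratio of CPM means is not the fitted fold change. Sequence windows came from RefSeq on GRCh38.p14. The fit was tested on simulated counts.

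The members, the gene lists, the tests and the named genes were chosen with earlier results of these data known. Named besides the members were ATF4, DDIT3, ERN1, ATF6 and EIF2AK3, up to 3 rising and 3 falling genes of each other list of at least 5 CPM on average over the line, in parental cells (of which some are printed), and the 5 genes most like HSPA5, HERPUD1 and the members' mean. The 5 CPM average was taken over all group means of the line, treated groups included. A named gene can therefore lie below 5 CPM in a group compared. Alternatives were DESeq2 1.42.0, other scalings, other filters, the compared groups alone, a block for replicate number, and fits that leave out 1 library. Replicate numbers were not used as pairs. Libraries of a group differed by more than counting noise in all 24 pairs. Totals of 23849832 to 48486296 counts a library limit genes with few counts most, DNAJB9 and SDF2L1 among the members.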

Additional observations from a re-analysis of the deposited data

Results flagged for a closer look

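In 5637 the drug effect differed between NR and parental cells for 7 of 9 members tested, by a test of the difference itself (edgeR). Of all genes tested there, 7.39% were called positive and 6.48% negative. DNAJB9 was among the 7 but was called in only 11 of 18 alternatives. The NR minus parental differences were 0.31 for HSPA5, 0.72 for HSP90B1, 0.47 for PDIA4 and 0.52 for CRELD2, and -0.78 for DNAJB9, -0.76 for HERPUD1 and -0.37 for XBP1, all on the log2 scale. In OVCAR8 the same difference passed for PDIA4 (0.42), HERPUD1 (-0.59) and XBP1 (-0.66), where 4.62% of all genes tested were called positive and 4.21% negative. These calls held in 8, 13 and 5 of 18 alternatives. Between lines, the effect in parental cells differed for HSPA5, by 0.52 (OVCAR8 minus 5637), where 5.46% of all genes tested were called higher and 4.83% lower. With only the parental libraries fitted, the HSPA5 call ended (edgeR adjusted p = 0.079).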

How the results depend on the processing

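In parental 5637 cells all 104 alternative values of the 8 called members kept their direction and call. In parental OVCAR8 cells 88 of 91 values of the 7 called members did, and 3 kept the direction but not the call. With library size as the only scaling, the median of all genes moved from 0.02 to 0.13 in parental and from -0.00 to 0.12 in NR 5637 cells and from 0.01 to 0.11 in parental OVCAR8 cells, under neratinib. The share of higher genes among all calls moved likewise, from 50.4% to 64.2%, from 46.6% to 67.4% and from 49.8% to 62.6%. It also moved from 52.4% to 40.5% in the NR minus parental difference of OVCAR8 and from 51.3% to 32.4% in the line difference of NR cells.

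In OVCAR8 NR cells on neratinib the members called, 1 in the report, were 2 with DESeq2, 2 with library size alone, 2 with a filter of 1 CPM in 3 libraries, 6 with only the compared libraries, and 0 to 7 with 1 library left out, 7 being without OVCAR8 parental control replicate 2, an alternative chosen after seeing the data. Of all genes, 21.4% were called with only the compared libraries and 21.3% without that library, where 0.642% rose and 0.747% fell in the full fit. For OVCAR8 NR against parental control cells the members called were 0 with the compared libraries alone, where 2.87% of all genes were called, and 1 to 4 with 1 library left out. For the OVCAR8 NR minus parental difference they were 0 to 5. Leaving out parental control replicate 2 gave the 4 and the 5, with 22.8% and 32.8% of all genes called. For the line difference of parental cells the members called were 2 with DESeq2, 3 with library size alone, 2 with no filter, 3 with the 1 CPM filter, 0 with the compared libraries alone, and 1 to 6 with 1 library left out. With the compared libraries alone 6.33% of all genes were called, and 18.6% without OVCAR8 parental control replicate 2, which gave the 6. Between lines under control the members called were 3 with the compared libraries alone, where 63.8% of all genes were called, and 3 to 7 with 1 library left out. Without OVCAR8 parental control replicate 2 they were 5, where 72.8% of all genes were called. Shares of all genes in the remaining alternatives are not printed here.

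Replicate numbers did not pair the libraries: same-numbered libraries had correlations of their deviations from -0.13 to 0.12 in 5637 and from -0.11 to 0.10 in OVCAR8, over 18 pairs each. With a replicate block the members called were 0 in OVCAR8 NR cells on neratinib, 1 in the OVCAR8 difference and 3 between lines under control, and within 1.5 times the reported count in the other 10 comparisons.

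The values that changed sign, 7 under other settings and 25 with 1 library left out, belong to members that had not passed the test in that comparison. DNAJC3 turned positive in parental 5637 cells on neratinib with library size alone (0.066), and in parental OVCAR8 cells with library size alone (0.080), no filter (0.0064) and the replicate block (0.0023). HSP90B1 in OVCAR8 NR against parental control cells (0.041), DNAJC3 in the OVCAR8 difference (-0.026) and CRELD2 in the line difference of NR cells (-0.00997) turned with library size alone. With 1 library left out the lowest and highest values were -0.083 and 0.0055 for DNAJC3 in parental 5637 cells on neratinib, -0.15 and 0.080 for DNAJC3 in parental OVCAR8 cells, and -0.21 and 0.11 for DNAJB9 between 5637 NR and parental cells on neratinib. Between OVCAR8 NR and parental control cells they were -0.12 and 0.18 for HSP90B1, -0.38 and 0.37 for SDF2L1 and -0.49 and 0.0057 for CRELD2. In the OVCAR8 difference they were -0.25 and 0.048 for HSPA5, -0.044 and 0.17 for DNAJC3 and -0.14 and 0.61 for SDF2L1. In the line difference of parental cells they were -0.12 and 0.15 for DNAJC3, -0.16 and 0.054 for HERPUD1, -0.026 and 0.30 for XBP1 and -0.085 and 0.41 for CRELD2, and in that of NR cells -0.000759 and 0.19 for CRELD2. Between lines under control they were -0.21 and 0.50 for SDF2L1 and -0.22 and 0.29 for CRELD2. The causes were not tested.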
